A study of Mus musculus with 16 samples.

Results

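The genes described here make and store catecholamines in the adrenal gland. There were 9 of them: Th, Ddc, Dbh, Pnmt, Gch1, Slc18a1, Slc18a2, Cyb561 and Slc6a2. They were found as the probe sets annotated to those symbols in the deposited table of log2 signals, which gave 20 of the 34945 probe sets that carry 1 gene symbol and 9 of 18193 genes. Each gene was represented by its brightest probe set on average, and all 9 members passed the filter on dim values, as did 13644 genes in all. A probe set is a group of short oligonucleotides on the array that together measure a transcript, and its affinity differs from that of any other, so signals are compared between arrays and never between probe sets.

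The samples were whole adrenals of mouse embryos on a C57BL/6 background, measured on Affymetrix arrays. The knockout (KO) embryos carried the Sf1-Cre transgene with Dicer lox/lox alleles, and were taken at embryonic days E15.5 and E16.5. The controls, which the labels call WT, were littermates without Cre at the same stages. The Cre is driven by Sf1, which is active in steroid-producing cells of the cortex, so the medullary cells that use the 9 genes are not the cells in which this driver is known to act. Glands of 1 genotype were pooled within a litter, each pool went on 1 array, and there were 4 arrays in each of the 4 groups, 16 in all.

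Catecholamines are built in chromaffin cells, which come from the neural crest and settle in the middle of the gland. Tyrosine hydroxylase (Th) makes DOPA from tyrosine, aromatic amino acid decarboxylase (Ddc) turns it into dopamine, dopamine beta-hydroxylase (Dbh) makes noradrenaline inside the storage vesicle, and phenylethanolamine N-methyltransferase (Pnmt) methylates noradrenaline to adrenaline. Pnmt is the enzyme of the pathway best known for its dependence on glucocorticoid from the surrounding cortex, which acts through the receptor Nr3c1.

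The targeted gene checks the labels. Dicer1 signals on the log2 scale lay between 8.002 and 8.36 in KO and between 8.50 and 8.64 in WT adrenals at E15.5, and between 8.09 and 8.42 in KO and between 8.45 and 8.83 in WT adrenals at E16.5, with no overlap at either stage. The log2 differences were -0.35 (adjusted p = 0.0638, limma) and -0.36 (adjusted p = 0.0414), and the E16.5 one was -0.29 (adjusted p = 0.0878) without WT replicate 2, an array that stood apart. On WT replicate 2 at E16.5 the 3′ probe set of the Gapdh control exceeded the 5′ one by 3.25 on the log2 scale, against -0.049 to 1.496 on the other 15 arrays, and for the actin control by 3.05, against 0.37 to 1.74. This difference is a sign of shortened RNA or of incomplete copying. The E16.5 differences of the 9 genes are given with and without this array.

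Sequence around the start is shown for Th and Slc18a2, which share a motif there, and for Dbh, which lacks its exact letters. Ddc and Gch1 lack them too and did not pass the test. Dbh passed at E16.5 with all arrays, a call lost when any array of that stage was left out. Slc18a1, which also passed at E16.5, had no promoter entry. Whether the motif bears on the KO differences was not tested. Variants of the motif were not searched. RefSeq promoter entries on GRCm38.p6 were used for 5 of the 9 members. Windows of 270 bases were read, from 250 bases before the start to 20 bases from the start on. The windows are chr7:142899976-142900245 on the minus strand for Th, chr19:59260628-59260897 on the plus strand for Slc18a2 and chr2:27165257-27165526 on the plus strand for Dbh. Capitals mark the letters TGACGTCA, the cAMP response element that CREB-family factors are known to bind.
Th: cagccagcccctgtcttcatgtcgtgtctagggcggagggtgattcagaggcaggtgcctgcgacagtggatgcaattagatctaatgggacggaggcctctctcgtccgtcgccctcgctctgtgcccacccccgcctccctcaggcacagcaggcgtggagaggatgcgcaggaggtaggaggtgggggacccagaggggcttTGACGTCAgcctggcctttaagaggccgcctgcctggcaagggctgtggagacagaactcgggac
Slc18a2: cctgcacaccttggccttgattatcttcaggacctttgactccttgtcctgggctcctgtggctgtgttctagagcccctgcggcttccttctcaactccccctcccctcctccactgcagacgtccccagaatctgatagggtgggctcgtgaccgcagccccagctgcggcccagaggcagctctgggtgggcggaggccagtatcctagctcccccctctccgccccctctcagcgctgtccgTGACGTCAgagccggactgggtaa
Dbh: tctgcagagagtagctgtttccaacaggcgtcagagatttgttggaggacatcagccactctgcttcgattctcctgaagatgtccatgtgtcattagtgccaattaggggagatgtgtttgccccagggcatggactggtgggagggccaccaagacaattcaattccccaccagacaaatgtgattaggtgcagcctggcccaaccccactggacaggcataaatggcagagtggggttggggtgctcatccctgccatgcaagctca

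In Th the motif begins 45 bases before the start, and in Slc18a2 it begins 4 bases before the start and runs across it. Of all 32851 windows of this length, 1.73% hold TGACGTCA on either strand. TGTTCT, the half-site of the glucocorticoid receptor, was searched likewise and lies in Slc18a2, 185 bases before the start, and in 17.3% of all windows. GGGCGG, the GC box bound by Sp1, lies in Th at 220, in Slc18a2 at 59 and 27 and in Gch1 at 118 and 105 bases before the start, and in 34.1% of all windows. GCGTGGGCG, a site of Egr1, lies in no member's window and in 0.572% of all windows. A match is a stretch of letters in a window and was not measured as a bound site.

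None of the 9 genes passed the test between KO and WT adrenals at E15.5. With all arrays and the scaling as deposited, Dbh and Slc18a1 passed at E16.5, both higher in KO adrenals. The Dbh call was lost when any array of that stage was left out. At E15.5 the log2 difference, KO minus WT, was above 0 for 9 of 9 genes, with a median of 0.28, while it was above 0 for 64.2% of all genes tested, whose median was 0.07. By limma at an adjusted p under 0.05, 0 of 9 members passed at E15.5, against 5.86% of all genes in either direction and 3.69% upwards, and 2 members, Dbh and Slc18a1, had an unadjusted p under 0.05, against 19% of all genes. At E16.5 the difference was above 0 for 8 of 9 genes, with a median of 0.33, against 64.3% of all genes and a median of 0.08. There 2 of 9 members passed, both upwards, against 10.5% of all genes in either direction and 6.99% upwards. With Pnmt, 3 had an unadjusted p under 0.05, against 24% of all genes. The KO arrays lay above the WT arrays for 0 members at E15.5 and 2 at E16.5, against 9.8% and 10.4% of all genes. With WT replicate 2 left out, the E16.5 difference was above 0 for 6 of 9 members, with a median of 0.14, against 61.1% of all genes and a median of 0.07. Then 1 member passed, Slc18a1, against 12.5% of all genes. Of all genes that passed at E16.5, 954 were higher and 485 lower, and after quantile normalization 606 were higher and 570 lower. In whole glands, more cells of a type and more RNA per cell cannot be told apart, nor can a larger share of medulla from a smaller share of cortex.

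**Figure D1:**
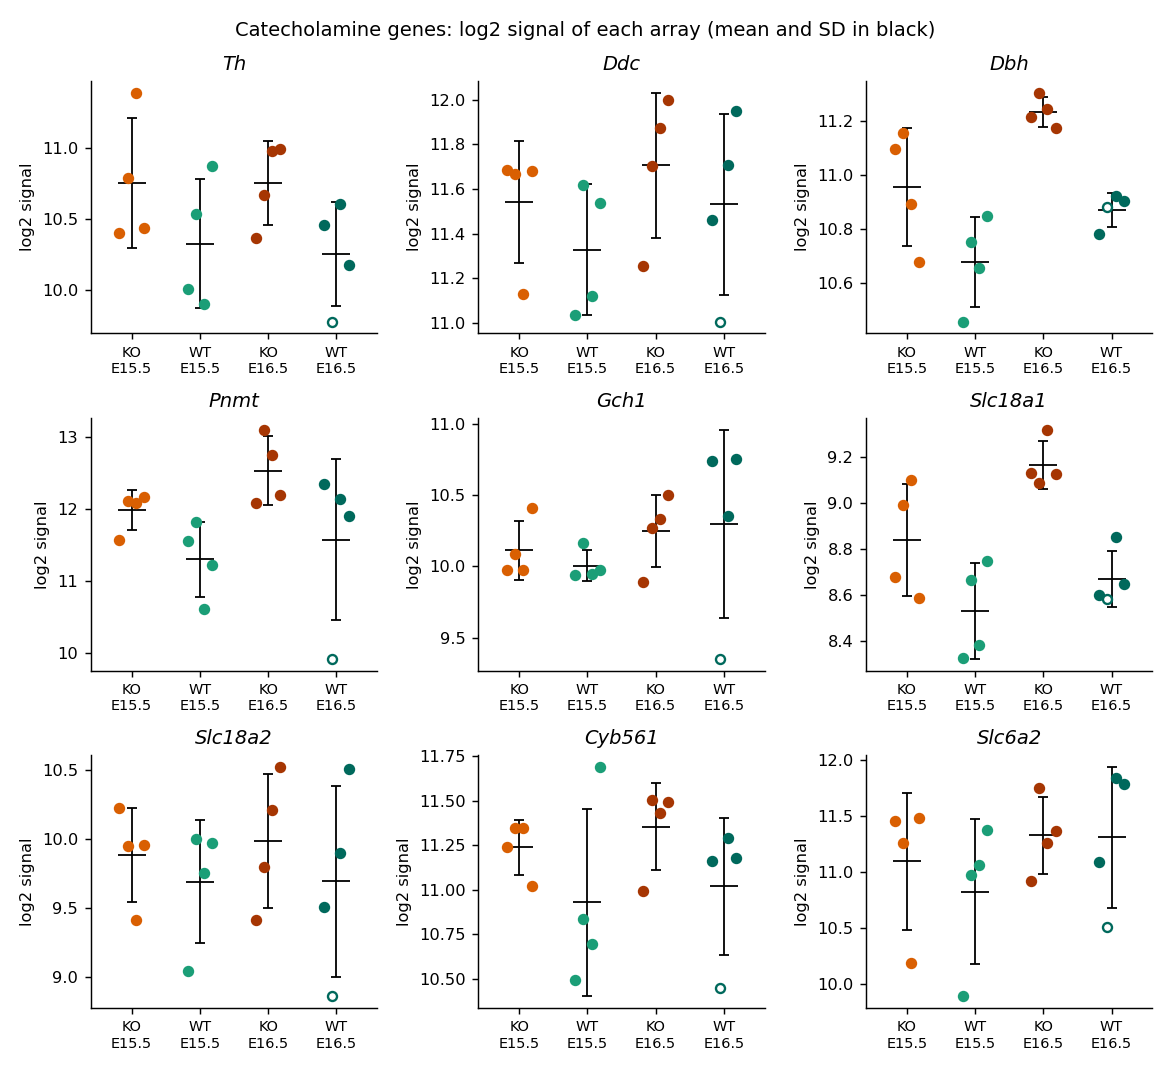
Log2 signal (vertical axis) of the kept probe set of each of the 9 genes in every array, by group (horizontal axis). Points are arrays, black bars are the mean and SD of 4 arrays, and the hollow point is WT replicate 2 at E16.5, which lies lowest of its group for all genes but Dbh. In Dbh and Slc18a1 all 4 KO arrays lie above all 4 WT arrays at E16.5.

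Th, which catalyses the rate-limiting step of the pathway, had log2 signals of 10.40, 10.79, 11.39 and 10.43 in KO adrenals at E15.5, against 10.001, 10.53, 9.90 and 10.87 in WT adrenals. At E16.5 they were 10.37, 10.67, 10.98 and 10.99 in KO adrenals, against 10.46, 9.77, 10.61 and 10.18 in WT adrenals. The groups overlapped at both stages, with 2 WT arrays above 2 KO arrays at E15.5 and 1 KO array below 2 WT arrays at E16.5. The differences were 0.43 ± 0.25 (SE) at E15.5 and 0.50 ± 0.25 at E16.5, 1.35-fold and 1.41-fold, and neither passed (adjusted p = 0.41 and 0.252, limma). Its E16.5 difference was 0.34 without WT replicate 2.

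Ddc, which also serves serotonin synthesis, averaged 11.54 ± 0.27 in KO and 11.33 ± 0.29 in WT adrenals at E15.5 (SD, n = 4 each). It averaged 11.71 ± 0.33 in KO and 11.53 ± 0.40 in WT adrenals at E16.5. The KO and WT ranges overlapped over most of their length at both stages. The differences were 0.21 and 0.18 on the log2 scale (adjusted p = 0.669 and 0.681, limma), and without WT replicate 2 the E16.5 difference was 0.00.

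Of the 4 pathway enzymes, Dbh alone passed at E16.5, with all arrays and the scaling as deposited. Its signals at E16.5 were 11.21, 11.30, 11.24 and 11.17 in KO adrenals, against 10.78, 10.88, 10.92 and 10.90 in WT adrenals. All 4 KO arrays lay above all 4 WT arrays, within narrow groups. The difference was 0.36 ± 0.11, 1.29-fold, with an adjusted p of 0.0453 in limma. At E15.5 the signals were 11.10, 11.15, 10.89 and 10.68 in KO adrenals, against 10.46, 10.75, 10.66 and 10.85 in WT adrenals, and the lowest KO array lay inside the WT range. The difference there was 0.28 ± 0.11 (adjusted p = 0.17). The size of the E16.5 difference held when any array of that stage was left out, between 0.33 and 0.38, but the gene passed in 0 of those 8 fits, with an adjusted p between 0.0571 and 0.104. With WT replicate 2 left out it was 0.37 (adjusted p = 0.0571). Nor did Dbh pass after quantile normalization (0.33, adjusted p = 0.104) or with arrays centred on their 75th percentile (0.27, adjusted p = 0.182). It also failed when the test allowed for the median absolute difference of dim probe sets (adjusted p = 0.269). Both other probe sets of Dbh were higher in KO adrenals on average at E15.5 (0.08 and 0.48) and at E16.5 (0.27 and 0.43, or 0.285 and 0.27 without WT replicate 2), and neither passed.

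Pnmt, the last enzyme, had the largest differences of the 9 genes and the largest SEs with all arrays, while without WT replicate 2 the E16.5 difference of Slc18a1 (0.47) exceeded its own (0.41). Its signals at E15.5 were 11.58, 12.11, 12.09 and 12.17 in KO adrenals, against 11.55, 11.83, 10.62 and 11.22 in WT adrenals. At E16.5 they were 12.09, 13.11, 12.75 and 12.20 in KO adrenals, against 12.35, 9.91, 12.14 and 11.90 in WT adrenals. At E15.5 the lowest KO array lay above 3 WT arrays and below the highest, and at E16.5 WT replicate 2, at 9.91, lay far below every other array while another WT array lay above 2 KO arrays. The differences were 0.68 ± 0.42 at E15.5, with a 95% interval from -0.21 to 1.57, and 0.96 ± 0.42 at E16.5, with an interval from 0.07 to 1.85 (adjusted p = 0.432 and 0.171, limma). The E16.5 difference was 0.41 (adjusted p = 0.377) without WT replicate 2. By mean level the groups ran from WT at E15.5 (11.30) over WT at E16.5 (11.58) and KO at E15.5 (11.99) to KO at E16.5 (12.54), and the ranges of all neighbours in that order overlapped.

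A second probe set of Pnmt gave smaller differences with less spread. It lay between 11.09 and 11.33 in KO and between 10.17 and 11.09 in WT adrenals at E15.5, and between 11.77 and 12.41 in KO and between 11.08 and 11.68 in WT adrenals at E16.5. The KO arrays lay above the WT arrays at both stages, with the nearest pair at 11.09 each at E15.5, and WT replicate 2 was there among the highest of its group. The differences were 0.39 (adjusted p = 0.245, limma over all 34945 probe sets) and 0.55 (adjusted p = 0.0807), and 0.62 (adjusted p = 0.0655) at E16.5 without that array. The third probe set was dim, near 6 in every group, with differences of -0.14 and -0.08, the second being 0.04 without WT replicate 2. The 3 Pnmt probe sets thus disagreed in size, and in whether WT replicate 2 was low.

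**Figure D2:**
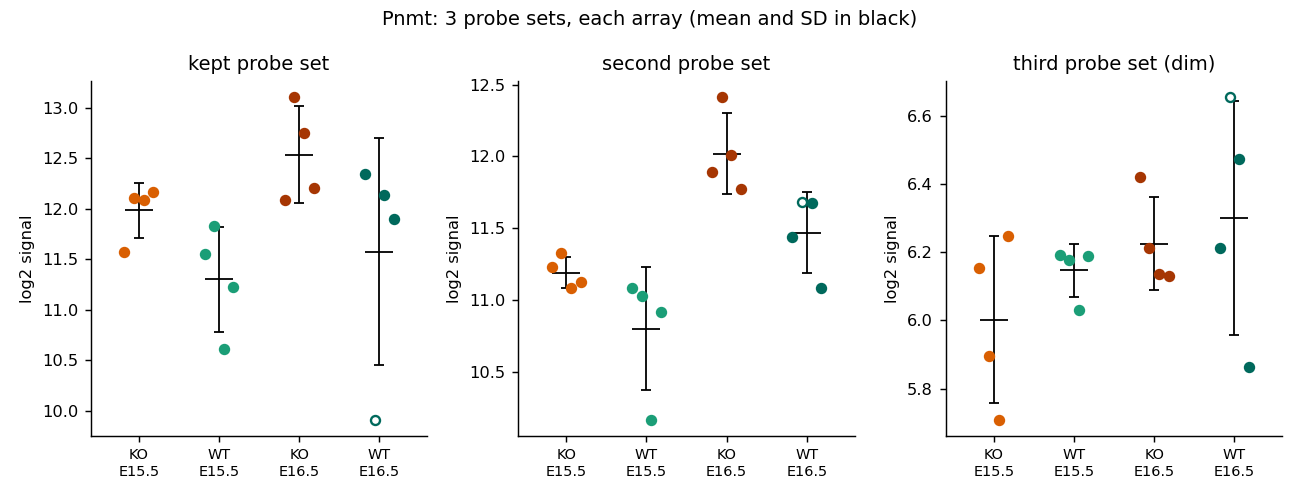
Log2 signal (vertical axis) of the 3 probe sets of Pnmt in every array, by group (horizontal axis), with mean and SD of 4 arrays in black and WT replicate 2 at E16.5 hollow. That array is lowest of its group in the kept probe set (9.91) and among the highest in the other 2, and in the second the KO arrays lie above the WT arrays at both stages.

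Gch1 makes the first committed step towards tetrahydrobiopterin, the cofactor that Th needs. It averaged 10.11 ± 0.21 in KO and 10.01 ± 0.11 in WT adrenals at E15.5, and 10.25 ± 0.26 in KO and 10.30 ± 0.66 in WT adrenals at E16.5 (SD, n = 4 each). The differences were 0.11 and -0.05 (adjusted p = 0.872 and 0.934, limma), and -0.37 at E16.5 without WT replicate 2. A second probe set of Gch1 gave 0.011 and 0.007, and -0.02 at E16.5 without that array. There WT replicate 2, at 9.98, lay inside the range of its group. Of the other genes of cofactor synthesis and recycling, 0 of 6 passed at either stage, with medians of 0.12 and 0.16. Pts, the second enzyme of synthesis, had -0.32 at E15.5 (adjusted p = 0.285), and Qdpr, which regenerates the cofactor, had 0.18 at E16.5 (adjusted p = 0.303).

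Of the vesicular transporters, which load amines into storage vesicles in exchange for protons, Slc18a1 (VMAT1) rose in KO adrenals at E16.5 and Slc18a2 (VMAT2) did not pass. Slc18a1 had 9.13, 9.09, 9.32 and 9.12 in KO adrenals at E16.5, against 8.60, 8.58, 8.85 and 8.65 in WT adrenals. The highest WT array lay below the lowest KO array. The difference was 0.50 ± 0.13, 1.41-fold (adjusted p = 0.0210, limma), and 0.47 without WT replicate 2 (adjusted p = 0.0398). Leaving out any array of that stage gave 0.44 to 0.56, with a pass in 6 of 8 cases. It did not pass when the test allowed for the median absolute difference of dim probe sets (adjusted p = 0.108). At E15.5 Slc18a1 had 8.68, 8.99, 9.10 and 8.59 in KO adrenals, against 8.32, 8.67, 8.38 and 8.75 in WT adrenals, a difference of 0.31 ± 0.13 (adjusted p = 0.195) between overlapping groups.

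Slc18a2 averaged 9.89 ± 0.34 in KO and 9.69 ± 0.45 in WT adrenals at E15.5, and 9.98 ± 0.48 in KO and 9.69 ± 0.69 in WT adrenals at E16.5 (SD, n = 4 each). Its differences of 0.19 and 0.29 had SEs of 0.32 (adjusted p = 0.825 and 0.643, limma), and the E16.5 one was 0.01 without WT replicate 2. The 95% intervals ran from -0.48 to 0.87 and from -0.38 to 0.96, so they hold the difference of Slc18a1. The groups of Slc18a2 overlapped at both stages.

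Cyb561, a vesicle membrane cytochrome that passes electrons inwards to keep up the ascorbate Dbh uses, averaged 11.24 ± 0.15 in KO and 10.93 ± 0.53 in WT adrenals at E15.5. It averaged 11.35 ± 0.24 in KO and 11.02 ± 0.38 in WT adrenals at E16.5 (SD, n = 4 each). The differences were 0.31 and 0.33 (adjusted p = 0.531 and 0.414, limma), and 0.14 at E16.5 without WT replicate 2. Its highest array of all was a WT array at E15.5, at 11.69.

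Slc6a2, the noradrenaline transporter of the plasma membrane, averaged 11.10 ± 0.61 in KO and 10.83 ± 0.65 in WT adrenals at E15.5, and 11.33 ± 0.34 in KO and 11.31 ± 0.63 in WT adrenals at E16.5. The differences were 0.27 and 0.02 (adjusted p = 0.769 and 0.986, limma). With WT replicate 2 left out the kept probe set gave -0.25 at E16.5 and did not pass, while another, dim at 4.97 to 5.93, gave -0.44 with an adjusted p of 0.0190, against -0.23 (adjusted p = 0.433) with all arrays. With all arrays the 4 probe sets of Slc6a2 did not share a sign at either stage. Without WT replicate 2 all 4 were below 0 at E16.5, at -0.25, -0.44, -0.22 and -0.54.

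**Figure D3:**
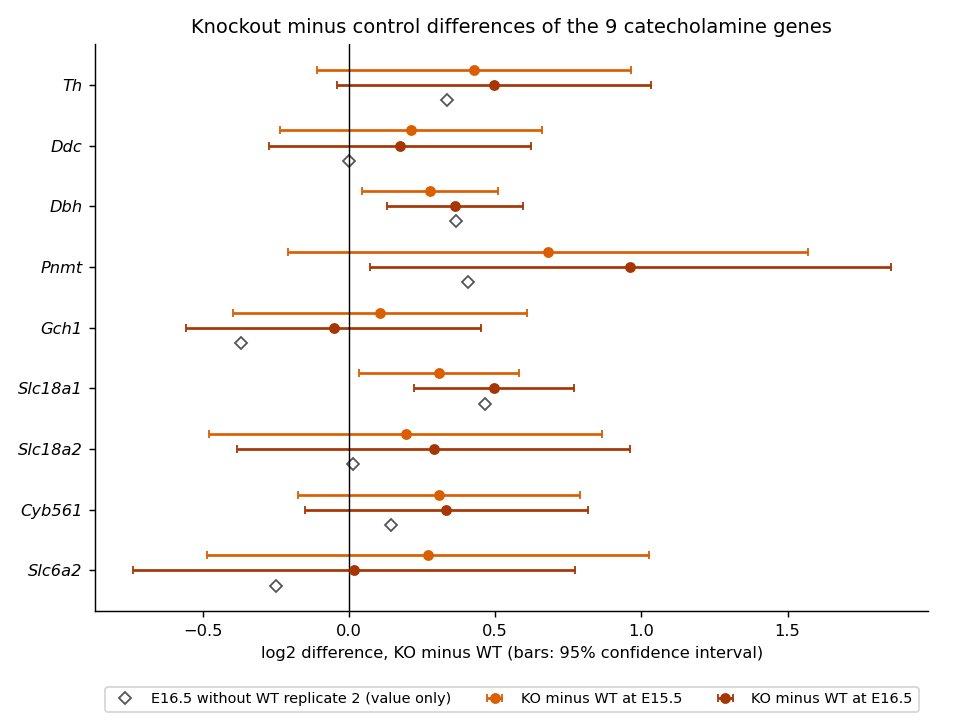
Log2 difference, KO minus WT (horizontal axis), of each of the 9 genes (vertical axis) at E15.5 and E16.5 with 95% confidence intervals from limma, and the E16.5 value without WT replicate 2 as a hollow diamond. The diamond lies at 0.37 for Dbh and 0.47 for Slc18a1, close to the values with all arrays, and at 0.41 for Pnmt, against 0.96 with all arrays.

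Over the 20 probe sets, 0 passed at E15.5 and 2 at E16.5, against 8.66% and 11.2% of all probe sets with 1 gene. The KO arrays lay above the WT arrays in 1 probe set at E15.5 and in 4 at E16.5, against 11.7% and 11% of all probe sets. The 2 that passed were the kept probe sets of Dbh and Slc18a1, and without WT replicate 2 they were the kept one of Slc18a1, higher in KO adrenals, and the dim one of Slc6a2, lower.

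Pnmt was set against the other genes of synthesis and vesicular storage within each array, as its log2 signal minus the mean log2 signal of Th, Ddc, Dbh, Slc18a1 and Slc18a2. This value was 1.16, 1.60, 1.70 and 1.90 in KO adrenals at E15.5, against 1.78, 1.51, 0.65 and 0.83 in WT adrenals. At E16.5 it was 1.81, 2.60, 2.03 and 1.44 in KO adrenals, against 2.19, 0.10, 1.75 and 1.46 in WT adrenals. The groups overlapped at both stages. The mean of Pnmt minus the others was 0.40 higher in KO adrenals at E15.5 and 0.60 higher at E16.5, beside group SDs from 0.31 to 0.90, and 0.17 higher at E16.5 without WT replicate 2. The mean of the 5 other genes was itself higher in KO adrenals, by 0.28 and 0.36. Pnmt was thus not lower relative to the other genes in KO adrenals at either stage on average.

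Of 10 genes that bear on glucocorticoid supply, 2 fell in KO adrenals at E15.5 and 5 at E16.5, and none rose, with medians of -0.26 and -0.39, against 0.07 and 0.08 over all genes. Of all 13644 genes tested, 297 passed as lower at E15.5 and 485 at E16.5. The difference was above 0 for 3 of the 10 genes at E15.5 and 4 at E16.5. Without WT replicate 2, 6 of the 10 fell at E16.5, with a median of -0.51, beside 532 of all genes lower. Cyp11b1, which makes corticosterone, differed by -0.94 (adjusted p = 0.00176, limma) at E15.5 and by -1.58 (adjusted p = 8.3e-06) at E16.5. Its log2 signals lay between 12.41 and 13.15 in KO and between 13.46 and 13.92 in WT adrenals at E15.5, and between 11.86 and 12.50 in KO and between 13.73 and 13.97 in WT adrenals at E16.5. Cyp21a1, a hydroxylase on the way to corticosterone, differed by -0.82 (adjusted p = 0.0539) and -1.09 (adjusted p = 0.00765), and Mc2r, the ACTH receptor, fell at E16.5 by 0.77 on the log2 scale (adjusted p = 0.00403). Its accessory protein Mrap fell by 0.56 at E16.5 (adjusted p = 0.0435), a call kept in 4 of 16 fits that each omitted an array, with adjusted p-values up to 0.132. Steroid levels were not measured.

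**Figure D4:**
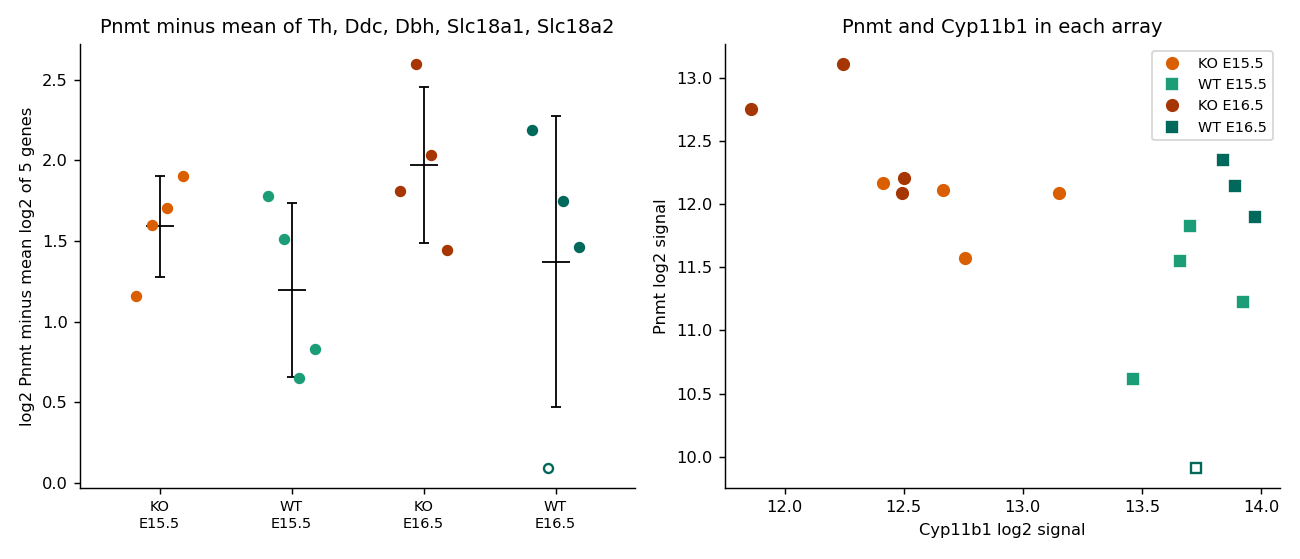
Left, Pnmt minus the mean log2 signal of Th, Ddc, Dbh, Slc18a1 and Slc18a2 in each array (vertical axis), by group, with mean and SD of 4 arrays. Right, log2 signal of Pnmt (vertical axis) against that of Cyp11b1 (horizontal axis), with KO arrays as circles and WT arrays as squares. All KO arrays lie left of all WT arrays, and the KO arrays with the lowest Cyp11b1, at 11.86 and 12.24, have the highest Pnmt, at 12.75 and 13.11.

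Factors known to act on the Pnmt promoter showed no passing difference, 0 of 8 at either stage, with medians of 0.02 and 0.08, the second being 0.05 without WT replicate 2. The glucocorticoid receptor Nr3c1 differed by 0.01 at E15.5 (adjusted p = 0.985, limma) and 0.19 at E16.5 (adjusted p = 0.508), or 0.06 without WT replicate 2. Egr1 differed by 0.14 (adjusted p = 0.849) and 0.16 (adjusted p = 0.77), or 0.32 without it. Of 17 genes known to be induced by glucocorticoid in various tissues, Nfkbia, the inhibitor of NF-kappaB, fell at both stages (-0.60 with an adjusted p of 0.00818, and -0.50 with 0.0191), and Errfi1, a brake on EGF receptor signalling, rose at E16.5 (0.36, adjusted p = 0.0098), though after neither other scaling. When the test allowed for the median absolute difference of dim probe sets, Nfkbia passed at neither stage (adjusted p = 0.0508 and 0.101). Errfi1 did not pass then at E16.5 (adjusted p = 0.118). The list's medians were -0.02 and 0.06, or 0.03 at E16.5 without WT replicate 2.

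Between the stages, none of the 9 genes passed in either genotype. E16.5 minus E15.5 was above 0 for 8 of 9 genes in KO adrenals, with a median of 0.17, and for 8 of 9 in WT adrenals, with a median of 0.19. In KO adrenals Slc18a1 differed by 0.32 (adjusted p = 0.387, limma), Dbh by 0.28 (adjusted p = 0.383) and Pnmt by 0.55 (adjusted p = 0.78), and 0.901% of all genes passed. In WT adrenals Pnmt differed by 0.27 (adjusted p = 0.932), and by 0.82 without replicate 2 at E16.5, and 0.0953% of all genes passed. The second Pnmt probe set differed by 0.83 in KO adrenals (adjusted p = 0.0995, limma over all probe sets), and the stages did not overlap. In WT adrenals that probe set differed by 0.67 (adjusted p = 0.398), with overlap. The third, dim one differed by 0.22 in KO and 0.15 in WT adrenals. In KO adrenals 2 members, Dbh and Slc18a1, had an unadjusted p under 0.05, against 9.51% of all genes, and in WT adrenals 0 members did, against 7.85%. The test of whether the KO effect itself differed between stages passed for 0 of 9 members and for 0% of all genes, at an unadjusted p under 0.05 for 0 members and 1.89% of all genes. That difference, E16.5 effect minus E15.5 effect, was 0.28 ± 0.59 for Pnmt (-0.27 without WT replicate 2), 0.09 ± 0.16 for Dbh and 0.19 ± 0.18 for Slc18a1.

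Within groups, the pairs of members that varied together most fell into 2 sets. Each gene's deviations from its group means were correlated over the 16 arrays for all 36 pairs, with p-values from 100000 permutations of arrays within groups and Benjamini-Hochberg adjustment over the pairs. Pearson's r was above 0 in 34 pairs, with a median of 0.489, and 7 pairs passed by r and 3 of them also by Spearman's rho. The shares among pairs of other genes were not computed, so these counts have no background beside them. Ddc and Slc18a2 had r = 0.94 (adjusted p = 0.00072, permutation) and rho = 0.95 (adjusted p = 0.0018), and r = 0.90 without the 2 arrays farthest from the median of Ddc. Th and Slc18a1 had r = 0.84 (adjusted p = 0.0142, permutation) and rho = 0.79 (adjusted p = 0.0324), and 0.74 without the 2 farthest. Th and Cyb561 had r = 0.78 (adjusted p = 0.0108, permutation) and rho = 0.73 (adjusted p = 0.0324), and 0.79 without the 2 farthest. Between the sets r was 0.31 for Th and Slc18a2 (adjusted p = 0.393, permutation; rho = 0.40, adjusted p = 0.273) and 0.18 for both vesicular transporters (adjusted p = 0.567; rho = 0.23, adjusted p = 0.546). Gch1 went with Ddc by r alone, at 0.73 (adjusted p = 0.0386, permutation), with rho = 0.69 (adjusted p = 0.0615). Cyb561 also had r of 0.62 with Ddc (adjusted p = 0.0911, permutation), with rho = 0.61 (adjusted p = 0.114). With Slc18a2 and Slc6a2 its r was 0.60 and 0.59 (adjusted p = 0.142 and 0.143, permutation), so the sets were not cleanly apart. Th and Slc18a2, the members that share TGACGTCA near the start, stood in different sets. Whether the motif bears on how members varied together was not tested.

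Leaving out WT replicate 2 at E16.5, these 3 pairs had r = 0.91, 0.85 and 0.74, and the median over all pairs was 0.309. Pnmt followed neither set: 0 of its 8 pairs passed, with a median r of 0.413, or 0.12 without that array. Its highest, r = 0.79 with Gch1 (adjusted p = 0.13, permutation; rho = 0.67, adjusted p = 0.101), was 0.54 without the 2 farthest arrays and 0.33 without WT replicate 2. All genes of an array share its RNA, its share of medulla and its normalization.

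**Figure D5:**
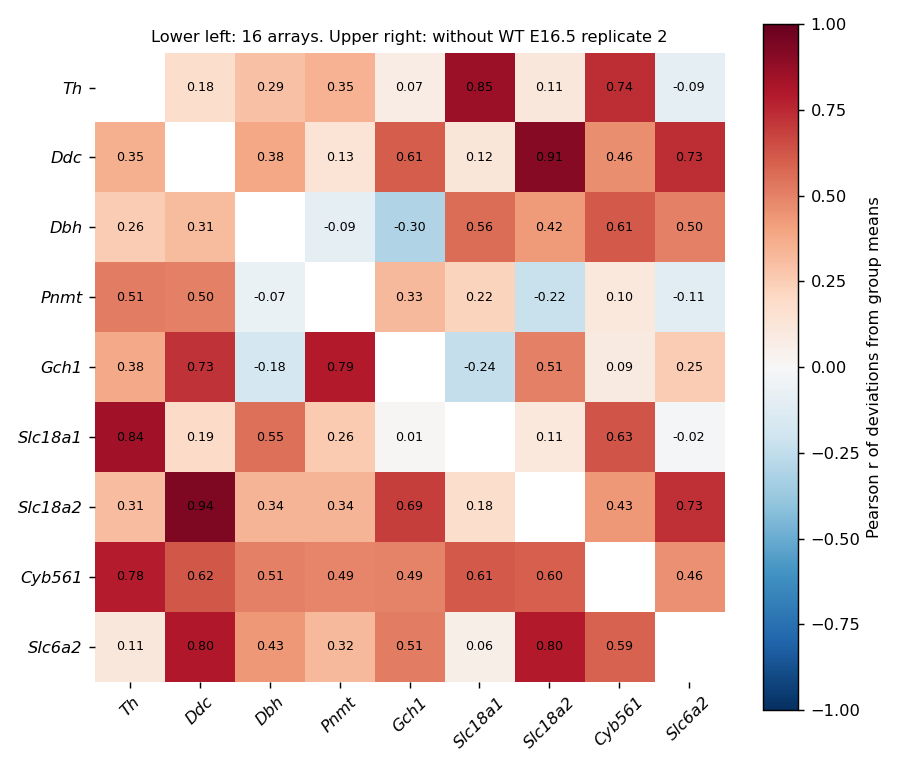
Pearson's r between the deviations of 2 genes from their group means, over 16 arrays in the lower left triangle and without WT replicate 2 at E16.5 in the upper right. Ddc, Slc18a2 and Slc6a2 form a block (0.94, 0.80 and 0.80), as do Th, Slc18a1 and Cyb561 (0.84, 0.78 and 0.61), and the row of Pnmt is pale in the upper right.

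Further steps of the pathway were taken from lists of genes. For breakdown and other uptake, 1 of 6 fell at E16.5 and 0 changed at E15.5. This was Aldh2, a mitochondrial aldehyde dehydrogenase, at -0.61 (adjusted p = 0.00731, limma), with -0.46 (adjusted p = 0.0518) at E15.5. The 6 include Renbp, a renin-binding protein that does not belong to catecholamine breakdown or uptake and did not pass. For the machinery of vesicle release 0 of 19 passed at either stage, with medians of 0.15 and -0.05 (-0.08 at E16.5 without WT replicate 2); the synaptic vesicle protein Sv2c had -0.88 at E16.5 (adjusted p = 0.174) and Snap91, a clathrin adaptor, had 0.29 at E15.5 (adjusted p = 0.346). Of 10 receptors and channels that carry the stimulus to chromaffin cells, Chrnb2, a nicotinic receptor subunit, rose at E16.5 (0.47, adjusted p = 0.036) and Cacna1a, a calcium channel subunit, fell (-0.47, adjusted p = 0.0298). At that stage 10.5% of all genes passed. The Cacna1a call held without WT replicate 2, at -0.56, and the list then held no rise. Over the 8 fits that each omitted an array of that stage, Cacna1a passed in 4, with adjusted p-values up to 0.0956 (limma). Chrnb2 did not pass after either other scaling, and the mean of all its probe sets differed by 0.093 (adjusted p = 0.563, limma).

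Of 15 other markers of chromaffin cells, none passed at E15.5, with a median of 0.26. At E16.5, 3 rose and 0 fell, with a median of 0.33, beside 6.99% of all genes higher. Chga, the chromogranin of the vesicle core, rose by 0.69 (adjusted p = 0.00849, limma), the granin Scg2 by 0.61 (adjusted p = 0.0446) and the transcription factor Insm1 by 0.51 (adjusted p = 0.0412). Of these, Chga alone passed without WT replicate 2, and Insm1 passed after neither other scaling. Without that array the median of the 15 markers was 0.24, and 1173 of 13644 genes passed upwards. The summed signal of the 15 markers, on the log2 scale, ranged from 15.40 to 15.64 in KO and from 14.92 to 15.29 in WT adrenals at E16.5, and from 15.25 to 15.48 in KO and from 14.86 to 15.36 in WT adrenals at E15.5. For 14 markers of sympathetic neuroblasts, which share several of the 9 genes, 0 passed, with medians of 0.46 at E15.5 and 0.09 at E16.5, the second being -0.13 without WT replicate 2. Their summed signal ranged from 13.90 to 14.50 in KO and from 12.78 to 14.10 in WT adrenals at E15.5, and from 13.58 to 14.66 in KO and from 13.05 to 14.25 in WT adrenals at E16.5.

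Among markers of other cells, the cortex and macrophage lists had the most genes that passed. The cortex list had 3 of 10 lower in KO adrenals at E15.5 and 5 at E16.5 (6 without WT replicate 2), beside 297 and 485 of 13644 genes tested. It shares Cyp11b1, Cyp21a1, Mc2r and other genes with the glucocorticoid supply list, so these counts overlap those given above. The summed signal of the cortex list ranged from 16.19 to 16.46 in KO and from 16.42 to 16.73 in WT adrenals at E15.5, and from 16.001 to 16.36 in KO and from 16.51 to 16.71 in WT adrenals at E16.5. The macrophage list had 8 of 14 higher at E15.5 and 14 of 14 at E16.5, and its summed signal ranged from 13.11 to 13.37 in KO and from 12.24 to 12.54 in WT adrenals at E15.5, and from 13.75 to 14.03 in KO and from 12.55 to 12.90 in WT adrenals at E16.5. Of 8 markers of Schwann cell precursors, which are forebears of chromaffin cells, Sox2 (0.50, adjusted p = 0.0431, limma) and Erbb3 (0.50, adjusted p = 0.0414) rose at E16.5. The capsule list had 1 of 12 (Rspo3) and the gonad list 1 of 4 (Foxl2) at E16.5, and the erythroid list 1 of 9 (Epor) and the kidney list 1 of 4 (Cited1) at both stages, all higher, beside 3.69% and 6.99% of all genes higher at E15.5 and E16.5. The gonad list had 2 of 4 without WT replicate 2. The endothelial list had 0 of 11 and the liver list 0 of 7. The summed signal of the liver list varied widely within groups. It ranged from 10.28 to 13.90 in KO and from 9.69 to 13.87 in WT adrenals at E15.5. At E16.5 it ranged from 9.20 to 14.30 in KO and from 10.99 to 13.74 in WT adrenals. The part of these cell types in the differences of the 9 genes was not tested.

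The genes outside the members and lists whose signals ran most like Pnmt over the 16 arrays were Apoe (r = 0.92), Cpne8 (0.90), Dyrk3, Slc50a1 and Capn5 (0.86 each). Apoe, a lipid carrier protein, differed by 0.53 (adjusted p = 0.5, limma) and 1.07 (adjusted p = 0.0767) between KO and WT adrenals and was at 8.70 on WT replicate 2, against 10.28 to 11.79 on the other arrays. Its r with Pnmt was 0.85 without that array. For Th the nearest were Csrp1 (r = 0.92), Slc29a1 and Rps6kc1 (0.91 each), Hap1 (0.90) and Zfp707 (0.89), which kept 0.87 to 0.90 without it. These values were selected from all genes for being high and are a description, with group differences included.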

How the data were processed

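The deposited values are log2 signals per probe set. The submitters' processing notes name RMA, which yields such normalized values, and limma; no version, and no word on whether the arrays went through RMA together, is given in the sources used here. RMA compresses dim probe sets, so their changes are understated. Mean log2 signal per array was 6.354 to 6.371 in KO and 6.306 to 6.324 in WT adrenals, with 8 arrays each. These ranges did not overlap. Of 9020 dim probe sets, 35.7% differed by genotype at E15.5 with p below 0.05 before adjustment, and 32.5% did so at E16.5. The deposited scaling thus left KO arrays slightly brighter as a whole, which KO minus WT differences include unless a rescaling is named. The cause was not tested. Probe sets with a single symbol in the platform annotation named a gene, represented by its brightest probe set. A gene was tested if that probe set exceeded, on 4 or more arrays, the 40th percentile of the array's signals.

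Group means were fitted to all 16 arrays with limma 3.58.1 in R 4.3.3 (data.table, version 1.17.8), moderated with eBayes and adjusted by Benjamini-Hochberg over all genes tested; passing means an adjusted p below 0.05. All tests were two-sided, and the fit was tested on simulated data. Precision is limited by the number of arrays, with a median SE of 0.139 for a KO effect. Correlations and figures used Python 3.11.15, numpy 2.4.6, pandas 2.3.3, scipy 1.17.1 and matplotlib 3.10.9. Promoter sequences are RefSeq's on GRCm38.p6.

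The members and lists were chosen with earlier results of these data known. Named genes are the 9 members; of each list up to 4 genes that passed in a KO comparison, largest difference first, or else those with the smallest p; Nr3c1, Egr1, Cyp11b1, Cyp21a1 and Dicer1; and the 5 genes most like Pnmt and the 5 most like Th. Alternatives were another scaling (quantile, or the 75th percentile of each array), an allowance equal to the median absolute difference of dim probe sets, other filters, the mean of all probe sets, just the groups compared, array weights, the replicate number as a block, and each array left out.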

Additional observations from a re-analysis of the deposited data

Results flagged for a closer look

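In 5 of the 36 sets of 4 arrays (9 genes in 4 groups), 1 array lay far from its group by Dixon's test; chance flags about 1 in 20 such sets. Pnmt was at 11.58 in KO replicate 1 at E15.5, below the others of its group, and Ddc was at 11.13 in KO replicate 3 at E15.5. Cyb561 was at 10.99 in KO replicate 1 and at 10.45 in WT replicate 2, both at E16.5 and both below the other 3. Gch1 was at 10.17 in WT replicate 2 at E15.5, above the others. The low Pnmt signal of WT replicate 2 at E16.5, 9.91, was not among them, as its gap to the next array was 0.816 of the group's range, under Dixon's critical value for 4 samples.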

How the results depend on the processing

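The count of members that passed at E16.5 was 2, and 1 after quantile normalization, with arrays centred on the 75th percentile, under the stricter filter on dim values, with the mean of all probe sets of a gene and with the replicate number as a block, and 0 with the allowance for a shift in dim probe sets (0.15 and 0.14 on the log2 scale). It ranged from 0 to 2 with an array left out. The count of probe sets at E16.5 was 1 under both scalings, 0 with the allowance, 6 with array weights (3 higher and 3 lower, where 36.2% of all genes passed) and 0 to 2 with an array left out, and at E15.5 it was 0 to 1. With array weights, 1 member passed between stages in WT adrenals, as did 8.08% of all genes. Pnmt passed under none of these settings at either stage, and its difference ranged from 0.45 to 0.85 at E15.5 and from 0.41 to 1.22 at E16.5 with an array left out. The median r between members was 0.489 and 0.309 without WT replicate 2 at E16.5, an alternative chosen after seeing the data. Genes passing upwards and downwards numbered 503 and 297 at E15.5 and 954 and 485 at E16.5, against 373 and 350, and 606 and 570, after quantile normalization, 276 and 372, and 447 and 609, with the 75th percentile, and 217 and 150, and 379 and 248, with the allowance.

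Under both scalings the difference stayed above 0 for 9 of 9 members at E15.5 and for 7 of 9 at E16.5. Signs turned for differences close to 0. Slc6a2 at E16.5 was -0.0087 after quantile normalization, -0.071 with the 75th percentile, -0.18 with the mean of probe sets and -0.48 with array weights, and at E15.5 it was -0.036 with the mean of probe sets and -0.16 without both arrays numbered 1, where Slc18a2 was -0.13. Nr3c1 at E15.5 was -0.068 under both scalings, -0.080 with the mean of probe sets and -0.055 with array weights. The stage difference of the KO effect was -0.30 for Pnmt and -0.0043 for Dbh with array weights. With an array left out, the ranges that crossed 0 were -0.022 to 0.35 for Slc18a2, -0.041 to 0.57 for Slc6a2, -0.064 to 0.32 for Egr1 and -0.063 to 0.14 for Nr3c1 at E15.5, 0.00 to 0.33 for Ddc, -0.37 to 0.10 for Gch1 and -0.25 to 0.20 for Slc6a2 at E16.5, and -0.27 to 0.54 for Pnmt and -0.0076 to 0.16 for Dbh in the stage difference. The cause was not tested.

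Whether the replicate numbers mark litters is not stated, and the check did not settle it, so the arrays were not treated as paired. Of 8 same-numbered KO and WT arrays, 5 had r over 0.1 between their deviations (-0.39 to 0.45 over all 8), and 3 of 8 KO arrays matched best with their own number. With the number as a block, Pnmt had 0.68 (adjusted p = 0.492, limma) and 0.96 (adjusted p = 0.243), and 2 member probe sets passed at E16.5. At E16.5 the block ended the calls of Dbh (adjusted p = 0.101), Dicer1 (0.0788), Insm1 (0.0952) and Chrnb2 (0.0726).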
